A study of Mus musculus with 10 samples.

Results

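The synuclein genes Sncg and Sncb were followed in Neuro2a, a mouse neuroblastoma cell line, by RNA sequencing of 10 libraries. They are 2 of the 55401 gene identifiers counted, matched to their symbols through the GENCODE M21 annotation, and the family's remaining member is not analysed here. Sncg was chosen by its lower level in ZF-SCN9A than in mCherry and Sncb as its paralog, so every value of that comparison for both genes is a description, with no test. The dCas9 comparison played no part in the choice and is tested.

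Wild-type Neuro2a cells were transfected with plasmids, and all 4 groups share the line, the Lipofectamine transfection (0.5 µg of each plasmid), a change of medium after 24 h and the 72 h incubation. One arm set dCas9-SCN9A (3 libraries), a Cas9 that binds without cutting and was aimed at SCN9A, against dCas9-empty (3 libraries). The other set ZF-SCN9A (2 libraries), an engineered zinc-finger DNA-binding protein aimed at SCN9A, against mCherry (2 libraries), a red fluorescent protein, which served as its control here. SCN9A encodes the sodium channel Nav1.7. What dCas9-empty lacks, where either repressor binds, which other plasmids each well received and whether transfected cells were selected are not stated in the labels.

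Synucleins are small neuronal proteins whose amino-terminal part folds along curved lipid membranes and whose tail stays disordered. Sncb encodes beta-synuclein, a presynaptic protein of the brain. Sncg encodes gamma-synuclein, which is abundant in peripheral sensory and sympathetic neurons and in retinal ganglion cells, is also made by fat cells, and appears in some tumours.

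The coding sequences of the pair are shown first because they tell how far reads of one could be taken for the other. Over the GENCODE transcripts Sncg-201 and Sncb-201, 254 of 364 aligned coding bases were identical (69.8%), with 81.4% in the stretch that opens with the first 180 coding bases of Sncg and 58.8% in the rest. The first 90 coding bases of each follow, 5′ to 3′, with the 18 differing bases in capitals.
Sncg: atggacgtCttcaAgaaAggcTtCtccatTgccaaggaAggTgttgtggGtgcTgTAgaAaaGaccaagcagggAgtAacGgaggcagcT
Sncb: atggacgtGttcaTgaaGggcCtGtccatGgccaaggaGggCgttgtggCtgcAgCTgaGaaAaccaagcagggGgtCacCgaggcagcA
The longest run that both transcripts share is 16 bases long, CCTCAGTGGCTGAGAA. Neither gene shares an exonic base with another annotated gene.

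Both repressors were aimed at a gene on another chromosome, so the windows around the start sites are shown to set the letters of the members beside those of Scn9a. The sequences are RefSeq's, build GRCm38.p6, from 250 bases before to 50 after the annotated start, both from the minus strand, Sncg at chr14:34374620-34374919 and Sncb at chr13:54766546-54766845. Capitals mark the GC box, searched as GGGCGG on both strands.
Sncg: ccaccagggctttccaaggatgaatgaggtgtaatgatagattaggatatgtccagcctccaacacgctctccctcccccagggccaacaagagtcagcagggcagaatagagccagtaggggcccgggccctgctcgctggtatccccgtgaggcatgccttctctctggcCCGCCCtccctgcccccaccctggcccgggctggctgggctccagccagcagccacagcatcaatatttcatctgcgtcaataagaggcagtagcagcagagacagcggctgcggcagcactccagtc
Sncb: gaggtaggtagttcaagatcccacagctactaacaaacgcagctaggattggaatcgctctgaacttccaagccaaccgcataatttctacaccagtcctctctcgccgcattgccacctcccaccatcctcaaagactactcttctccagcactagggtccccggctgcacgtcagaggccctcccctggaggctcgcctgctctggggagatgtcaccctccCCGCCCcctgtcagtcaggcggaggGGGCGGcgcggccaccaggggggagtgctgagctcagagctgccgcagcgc
The Sncg window held 1 GC box, starting at base -78, and the Sncb window held 2, at -26 and -1. Of 32841 windows of this length, 35.7% held at least 1. The TATA box, searched as TATAAA, was in neither, against 13.6% of all windows. GC content was 61.3% for Sncg and 62.0% for Sncb, where the median window had 52.7%. The longest run shared with the Scn9a window was 10 bases for each, CCTCCCTGCC in Sncg and CGCGGCCACC in Sncb, and 25.8% of windows held a run at least as long. In GENCODE the Sncg start lies 120 bases upstream of the RefSeq one, so the window sits around the RefSeq start.

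Gene counts per library ranged from 17.8 M to 19.0 M in dCas9-empty, from 15.4 M to 16.4 M in dCas9-SCN9A, from 6.59 M to 7.48 M in mCherry and from 4.41 M to 6.30 M in ZF-SCN9A (M, 1000000). Entries for the plasmids followed the labels. Scn9a, the target, was lower with both repressors, with a log2 fold change of -1.38 ± 0.07 (SE) for dCas9 and -1.76 ± 0.14 for ZF (edgeR quasi-likelihood test, adjusted p = 2.24e-09 and 1.71e-34). A gene counts as called below where that adjusted p is under 0.05. This held for 6 of 14628 genes tested with dCas9 (0.041%) and for 609 of 12899 with ZF (4.72%). The spread between replicates may be technical, since the labels do not say that they came from separate cultures.

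Sncg lies at chr14:34370274-34374789 on the minus strand (ENSMUSG00000023064, 5 exons with 852 bases in all). Levels are in CPM, counts per 1000000 gene counts after TMM scaling within the arm. The dCas9-empty libraries (replicates 1 to 3) held 23.4, 25.6 and 26.4 CPM, and dCas9-SCN9A 22.4, 28.1 and 29.3 CPM. The mCherry libraries held 30.3 and 40.7 CPM, and ZF-SCN9A 14.04 and 11.3 CPM. On this scale both ZF-SCN9A libraries lay below all 8 others, and both mCherry libraries lay above all others. With all 10 libraries scaled together, mCherry replicate 1 lay below dCas9-SCN9A replicate 3, and ZF-SCN9A stayed lowest. The 95% Poisson intervals, which cover counting error only, were 11.3 to 17.3 and 8.39 to 14.9 CPM in ZF-SCN9A and 26.3 to 34.8 and 36.2 to 45.6 CPM in mCherry. These rest on 89 and 50 reads against 199 and 303. For dCas9-SCN9A replicate 3 the interval was 26.6 to 32.0 CPM, which overlapped that of mCherry replicate 1.

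With dCas9, Sncg did not pass the test. Its mean was 25.1 ± 1.55 CPM (SD, n = 3) in dCas9-empty and 26.6 ± 3.66 in dCas9-SCN9A, and the libraries overlapped, while those of 15.6% of the genes tested did not. On the log2 scale the difference was 0.08 ± 0.10 (SE; adjusted p = 0.837, edgeR). Its 95% interval, -0.12 to 0.28, is 91.8% to 122% of control. An exact permutation test of log2 CPM, two-sided, gave p = 0.6, where 3 against 3 cannot go below 0.1. With a correction for exon length the value was -0.03, within the same interval.

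With ZF, Sncg stood at 35.5 ± 7.34 CPM (SD, n = 2) in mCherry and 12.7 ± 1.93 in ZF-SCN9A. This is 36.1% of control, or a log2 fold change of -1.47 ± 0.16 (SE). Of all genes tested, 0.612% had a log2 fold change of -1 or below, and in 22.3% both ZF-SCN9A libraries lay below both mCherry libraries. No reading is drawn from either share, because this comparison chose the gene. In a fit of all 10 libraries, the dCas9 change minus the ZF change was 1.56 ± 0.21 for Sncg; this contrast called 0.907% of all genes tested in it. The 2 ZF-SCN9A libraries were also the shallowest pair, and the part of depth in the difference was not tested. In such bulk samples, fewer cells with the transcript and less of it per cell cannot be told apart.

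**Figure D1:**
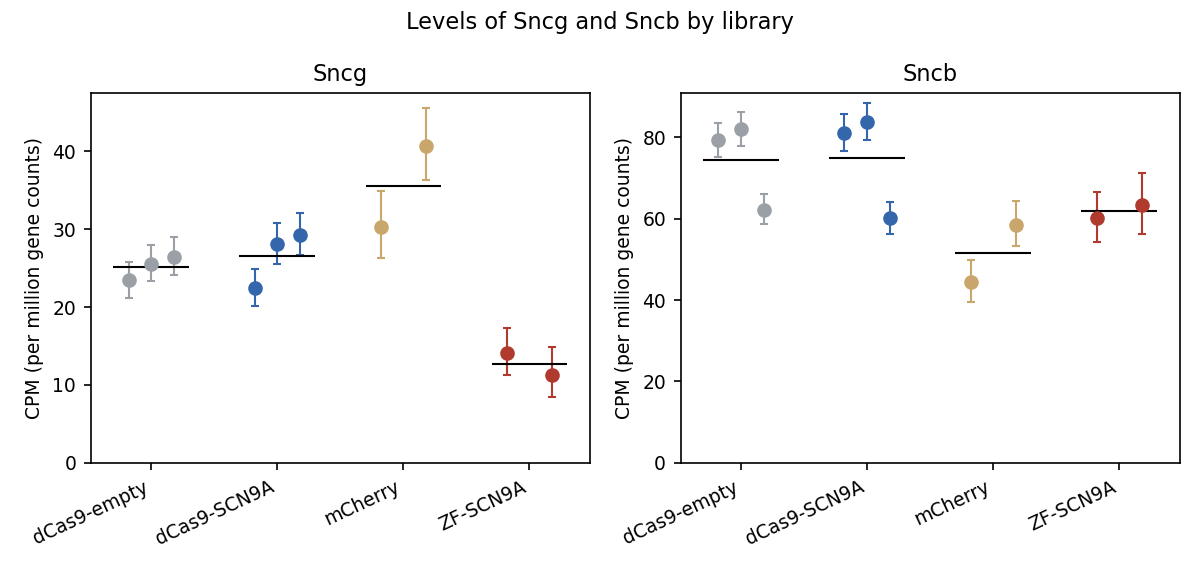
Level of Sncg and Sncb in each of the 10 libraries, in CPM by group, with points for libraries, bars for the 95% Poisson interval and a line for the group mean. For Sncg the ZF-SCN9A libraries sit at 14.04 and 11.3 CPM, and for Sncb the mCherry libraries sit at 44.5 and 58.6 CPM.

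Sncb lies at chr13:54758860-54766595 on the minus strand (ENSMUSG00000034891, 7 merged exons with 2145 bases). The dCas9-empty libraries held 79.3, 82.0 and 62.2 CPM, and dCas9-SCN9A 81.0, 83.7 and 60.1 CPM. The mCherry libraries held 44.5 and 58.6 CPM, and ZF-SCN9A 60.3 and 63.3 CPM. In both dCas9 groups the library numbered 3 was the low one, and the tests did not pair libraries by number. With scaling within the arm, the mCherry libraries lay below all others. On that scale the ZF-SCN9A libraries lay within the range of dCas9-SCN9A and overlapped dCas9-empty. ZF-SCN9A replicate 1 lay below all 3 dCas9-empty libraries. With all 10 libraries scaled together, both ZF-SCN9A libraries lay below both dCas9 groups, and mCherry stayed lowest.

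With dCas9, Sncb did not pass the test either. Means were 74.5 ± 10.7 CPM (SD, n = 3) in dCas9-empty and 74.9 ± 12.9 in dCas9-SCN9A. The log2 fold change was 0.01 ± 0.16 (SE), adjusted p = 0.990 in edgeR, with a 95% interval of -0.40 to 0.41, or 76.0% to 133% of control. The exact permutation test gave p = 1.0. The sign turned without dCas9-empty replicate 3 (-0.10), dCas9-SCN9A replicate 1 (-0.04) or dCas9-SCN9A replicate 2 (-0.07).

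In the ZF arm, Sncb had means of 51.5 ± 9.96 CPM (SD, n = 2) in mCherry and 61.8 ± 2.17 in ZF-SCN9A, a log2 fold change of 0.25 ± 0.11 (SE). Which mCherry library is kept decides its size, 0.08 without mCherry replicate 1 and 0.47 without mCherry replicate 2. The SE of 0.11 rests on a spread pooled over genes, against 0.18 with DESeq2 and 0.26 in the fit of all 10 libraries. The dCas9 change minus the ZF change was -0.24 ± 0.30. In the ZF arm the 2 synucleins thus had log2 fold changes of opposite sign.

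**Figure D2:**
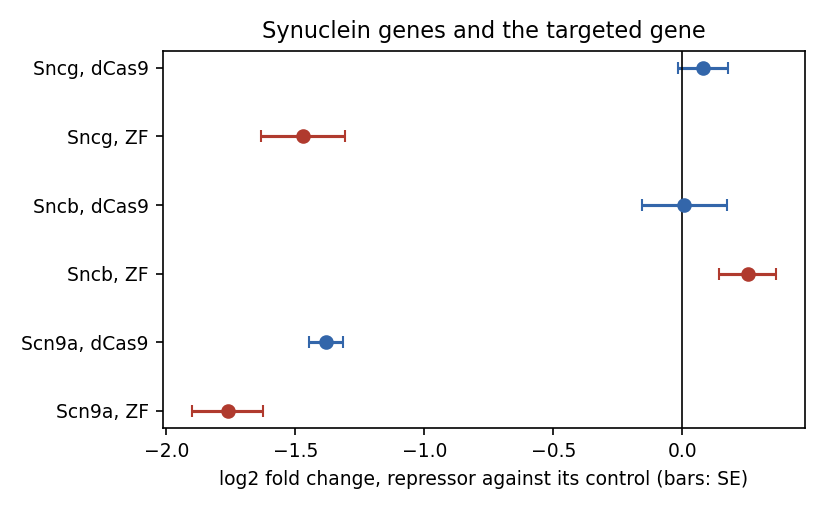
Log2 fold change of Sncg, Sncb and the targeted gene Scn9a against control in each arm (dCas9 blue, ZF red), with bars for the standard error and a line at 0. Sncg with ZF is at -1.47, Sncg with dCas9 and Sncb in both arms lie between 0.01 and 0.25, and Scn9a is at -1.38 and -1.76.

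A ratio of both genes within a library needs no scaling between libraries. The log2 ratio of Sncg to Sncb reads was -1.76, -1.68 and -1.23 in dCas9-empty and -1.85, -1.58 and -1.04 in dCas9-SCN9A. It was -0.55 and -0.53 in mCherry and -2.10 and -2.49 in ZF-SCN9A. The 2 mCherry libraries agreed closely although both genes differed between them, and the dCas9 groups overlapped, with group means of -1.56 ± 0.28 and -1.49 ± 0.41 (SD, n = 3). The difference with dCas9 was 0.07, exact permutation p = 0.7, and it turned negative without dCas9-empty replicate 1 (-0.03) or dCas9-SCN9A replicate 3 (-0.16). With ZF the difference was -1.75. As a share of the reads of both, Sncg was 40.5% and 41.0% in mCherry against 18.9% (15.5% to 22.7%, exact Clopper-Pearson) and 15.2% (11.5% to 19.5%) in ZF-SCN9A.

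**Figure D3:**
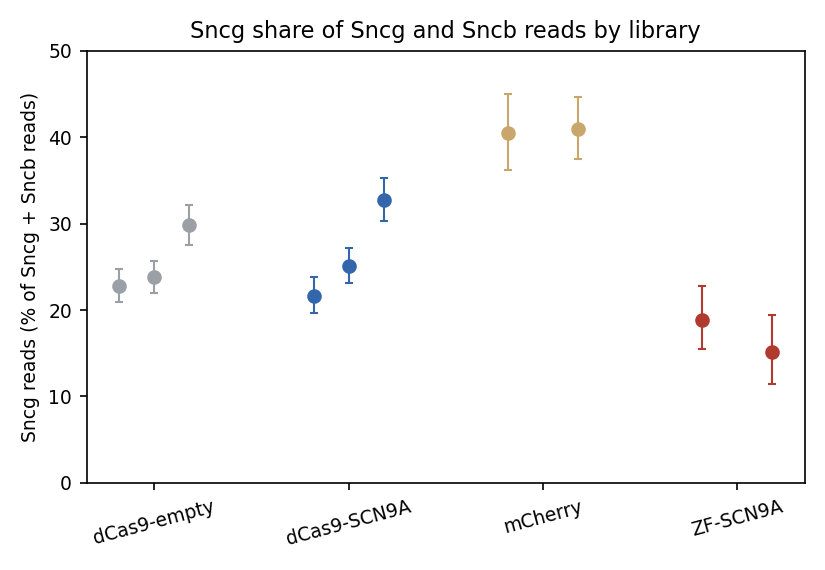
Sncg as a percentage of all Sncg and Sncb reads in each library, by group, with bars for the exact 95% interval. The dCas9 groups span 21.7% to 32.7%, mCherry lies at 40.5% and 41.0%, and ZF-SCN9A at 18.9% and 15.2%.

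Ordered by mean level with scaling within the arm, Sncg ran from mCherry through dCas9-SCN9A and dCas9-empty to ZF-SCN9A. On that scale only the dCas9 neighbours overlapped. For Sncb the order was dCas9-SCN9A, dCas9-empty, ZF-SCN9A and mCherry, and on that scale only mCherry stood clear of its neighbour. With all 10 libraries scaled together, Sncg in mCherry also overlapped dCas9-SCN9A, and Sncb in ZF-SCN9A stood clear of dCas9-empty. The arms may differ in more than the plasmid, so levels across them are set side by side only. Per kb of merged exon, Sncg held 29.5 CPM (dCas9-empty), 31.2 (dCas9-SCN9A), 41.7 (mCherry) and 14.9 (ZF-SCN9A). On the same scale and in the same order Sncb held 34.7, 34.9, 24.0 and 28.8. Per kb Sncg thus lay above Sncb in mCherry and below it in the other groups. The merged length of Sncb includes exons of transcripts that retain an intron. With the 1351 bases of Sncb-201 instead, mCherry held 41.7 ± 8.62 for Sncg and 38.1 ± 7.37 for Sncb (SD, n = 2). Sncb then held 55.1 in dCas9-empty, 55.5 in dCas9-SCN9A and 45.7 in ZF-SCN9A.

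Within 500 kb of Sncg the annotation has 42 genes, of which 6 passed the filter in each arm, and edgeR (1 gene in each arm with an unadjusted p below 0.05), DESeq2 and limma-voom called 0 in either. DESeq2 gave an adjusted p to only 3 of these neighbours with dCas9 and 4 with ZF. Glud1, the mitochondrial glutamate dehydrogenase 25.0 kb away, had a log2 fold change of 0.06 with ZF, and Bmpr1a, a BMP receptor 35.9 kb away, -0.11. The DNA repair gene Shld2, 59.8 kb away, had 0.52 with an adjusted p of 0.341 (edgeR). Ldb3, a muscle Z-disc gene at most 4.10 CPM, had 1.24 ± 0.48, adjusted p = 0.119. Wapl, a cohesin release factor, had -0.10 and the pseudogene Rpl23a-ps3 0.01. Mmrn2, only 0.675 kb from Sncg, reached no more than 0.537 CPM and was not tested.

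Around Sncb, 35 genes lie within 500 kb and 20 with dCas9 and 19 with ZF were tested. With dCas9 edgeR, DESeq2 and limma-voom each called none, though DESeq2 gave an adjusted p to only 10. In edgeR, 0 had an unadjusted p below 0.05. With ZF, 4 of the 19 had an unadjusted p below 0.05 (edgeR), beside 2087 of 12899 over all genes. Only 1 of the 19 was called, close to the 4.72% called over all genes. It was Unc5a, a netrin receptor that held 48.0 and 57.9 CPM in mCherry and 33.3 and 31.7 in ZF-SCN9A. Its log2 fold change was -0.70 ± 0.12, adjusted p = 1.75e-06 (edgeR), and it was called in each alternative run. Gprin1, a neurite outgrowth gene 8.98 kb from Sncb, had -0.03, Simc1 0.28 and the complexin Cplx2 -0.19 (adjusted p = 0.166, edgeR). The protocadherin-related Cdhr2, at most 4.10 CPM in any library, had 1.18 (adjusted p = 0.124).

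**Figure D4:**
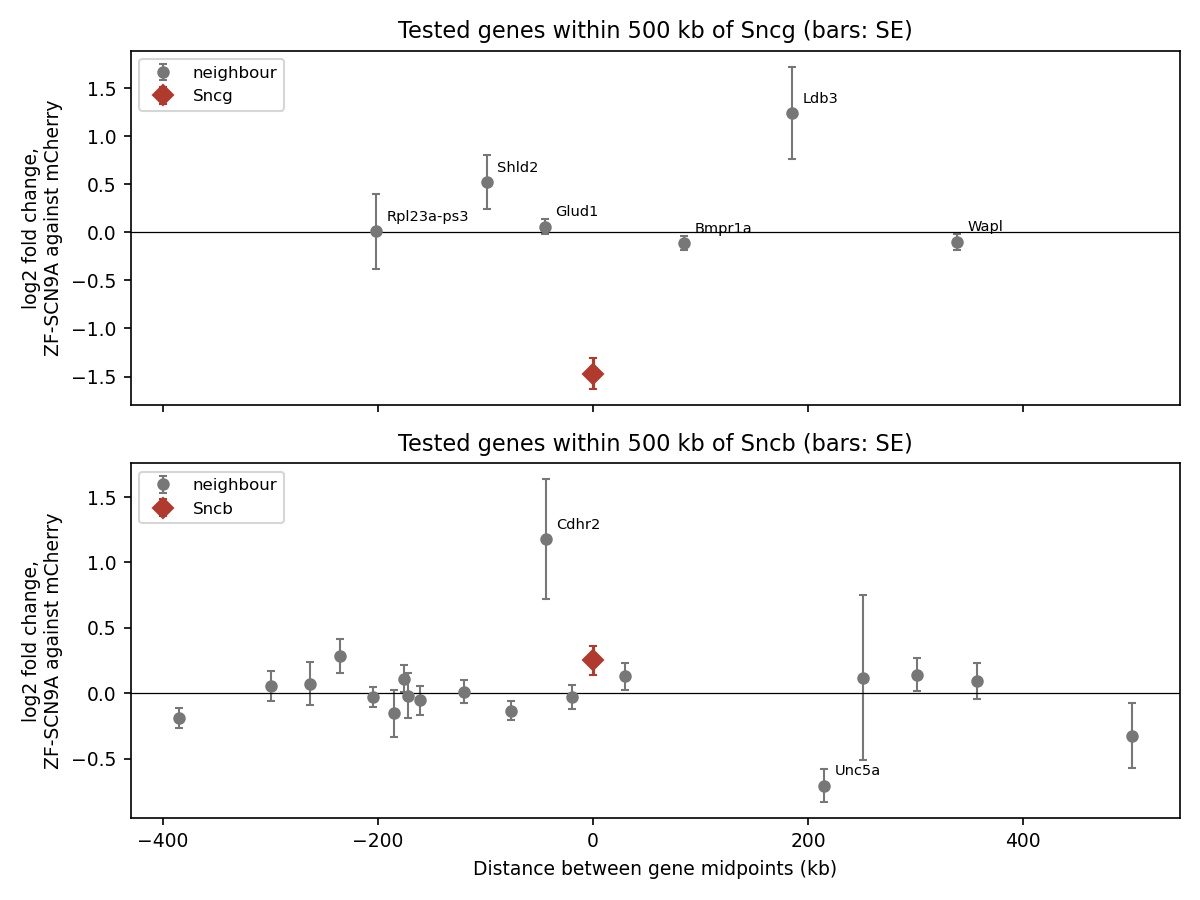
Log2 fold change in ZF-SCN9A against mCherry of the genes tested within 500 kb of Sncg (top) and Sncb (bottom), by distance between gene midpoints in kb, with bars for the standard error and diamonds for Sncg and Sncb. Unc5a at -0.70 is the only neighbour called (4.72% of all genes were), while Sncg itself is at -1.47 and Sncb at 0.25.

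Genes that work with synucleins were grouped in 10 lists with other markers. With dCas9, edgeR called 0 of 110 listed genes (12 with an unadjusted p below 0.05), limma-voom called 0 and DESeq2 2 of the 73 that had an adjusted p. With ZF, 8 of 108 were higher and 7 lower, beside 1.95% and 2.78% of all genes. There DESeq2 called 2 and limma-voom 14. Median log2 fold changes of lists stood between -0.07 and 0.19 with dCas9 and between -0.06 and 0.31 with ZF, where the median of all genes was 0.01 and 0.00.

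Vesicle and SNARE partners, the release machinery on which synucleins sit, had 27 genes tested with ZF. EdgeR called 2 of them lower and 0 higher, beside 2.78% and 1.95% of all genes. Snap25, a plasma membrane SNARE, fell by 0.26 on the log2 scale (adjusted p = 0.0222, edgeR) and Sv2a, a vesicle glycoprotein, by 0.36 (adjusted p = 0.0481), and the list's median was -0.04. Snap25 lost its call without mCherry replicate 2, ZF-SCN9A replicate 1 or ZF-SCN9A replicate 2 (adjusted p up to 0.351, edgeR), and Sv2a without any 1 of the 4 libraries (up to 0.615). DESeq2 called neither (adjusted p = 0.437 and 0.771), and 5 other settings lost Sv2a (adjusted p of 0.0534 to 0.0762). Of 24 genes for the modification and clearance of synucleins, edgeR called 1 with ZF, close to the 4.72% called over all genes. It was Ppp2ca, the catalytic subunit of phosphatase PP2A, which fell by 0.24 (adjusted p = 0.0118). Its call was lost without mCherry replicate 1 or either ZF-SCN9A library (adjusted p up to 0.449), with DESeq2 (0.250) and in the fit of all 10 libraries (0.0562). Of the 7 adaptor genes of the 14-3-3 family, edgeR, DESeq2 and limma-voom called 0 with ZF, with 0 at an unadjusted p below 0.05. Ywhab stood at -0.12 with ZF (adjusted p = 0.371, edgeR). Sfn, which had the lowest p of the family with dCas9, stood at 0.51 ± 0.29 there (adjusted p = 0.588) and at 0.15 ± 0.58 with ZF (adjusted p = 0.940).

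The catecholamine and sympathoadrenal list describes the lineage from which neuroblastoma arises. With ZF edgeR called 4 of its 16 genes higher and 3 lower, beside 1.95% and 2.78% of all genes, and DESeq2 called 1 higher and 1 lower. Gata2, a transcription factor of this lineage, held 291 and 269.7 CPM in mCherry and 184 and 192 in ZF-SCN9A, and fell by 0.58 on the log2 scale (adjusted p = 5.11e-14, edgeR). It kept its call in each alternative run. Ret, the receptor for GDNF ligands, rose by 0.31 (adjusted p = 3.71e-05) and lost its call without ZF-SCN9A replicate 2 (adjusted p = 0.0591). Dbh, which makes noradrenaline, rose by 0.71 (adjusted p = 0.00313), Chga, a granule protein, by 0.25 (adjusted p = 0.00667) and Gch1, of tetrahydrobiopterin synthesis, by 0.24 (adjusted p = 0.0163), whereas the homeobox gene Isl1 fell by 0.41 (adjusted p = 0.00475). Dbh was lost when ZF-SCN9A replicate 1 or mCherry replicate 2 was left out (adjusted p up to 0.225, edgeR) and Chga without either ZF-SCN9A library (up to 0.388). Gch1 was lost without mCherry replicate 1 or either ZF-SCN9A library (up to 0.538), and Isl1 without mCherry replicate 1 or ZF-SCN9A replicate 2 (up to 0.351). DESeq2 called none of these 4, with adjusted p of 0.557 for Dbh, 0.228 for Chga, 0.425 for Gch1 and 0.387 for Isl1. In a fit of all 10 libraries edgeR also lost Dbh (adjusted p = 0.138), Chga (0.0530) and Gch1 (0.107), and with no filter on low counts Gch1 (0.0696).

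Of 13 cytoskeletal genes, 9 had a log2 fold change below 0 with ZF, and the list's median was -0.03. EdgeR called 1 of them, beside 4.72% of all genes, and limma-voom called 1 higher and 1 lower. The edgeR call was Prph, the peripheral neuron filament peripherin. Prph rose from 1525 to 1813 CPM, by 0.25 on the log2 scale (adjusted p = 0.00162, edgeR). The call was lost without mCherry replicate 1 or either ZF-SCN9A library (adjusted p up to 0.471), with DESeq2 (0.0840) and in the fit of all 10 libraries (0.104). Of 9 sensory and retinal ganglion genes tested, edgeR called 2 higher and 1 lower with ZF, beside 1.95% and 2.78% of all genes, and DESeq2 called 0. P2rx3, an ATP-gated channel of sensory neurons, rose by 0.59 (adjusted p = 0.00155, edgeR). Its call was lost without ZF-SCN9A replicate 1 (0.217) and with DESeq2 (0.326). Rbpms2 and Rbpms encode RNA-binding proteins, and Rbpms2 held only 2.74 and 1.75 CPM in mCherry and 5.21 and 5.20 in ZF-SCN9A. Rbpms2 rose by 1.22 (adjusted p = 0.0492) and Rbpms fell by 0.37 (adjusted p = 0.0222). The first lost its call without any 1 of the 4 libraries (adjusted p up to 0.345), the other without mCherry replicate 2 or either ZF-SCN9A library (up to 0.447). Other settings lost both as well, Rbpms2 with an adjusted p of up to 0.0980 (all 10 libraries in 1 fit) and Rbpms of up to 0.673 (DESeq2). Of the 17 genes listed, 5 stayed under 0.1 CPM in every library: Pou4f3, Slc17a6, Atoh7, Calca and Tac1. The list as a whole summed to 275.1 to 283.7 CPM in mCherry and 293.8 to 294.3 in ZF-SCN9A.

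Fat cells also make gamma-synuclein. Cfd, a marker of them, held only 0.61 and 1.88 CPM in mCherry and 3.31 and 3.39 in ZF-SCN9A. Of 10 adipocyte markers 4 were tested and none was called with ZF, with Cfd at 1.37 (adjusted p = 0.0955, edgeR) and Plin1 at -0.29 (adjusted p = 0.884). Of the 4, 2 were above and 2 below 0, the median was 0.05, and Lep was under 0.1 CPM everywhere. Their summed level was 21.2 to 24.0 CPM in mCherry and 27.4 to 28.1 in ZF-SCN9A. Fibroblast markers summed to 14.8 to 18.9 and 16.1 to 22.1 CPM, with Col1a1 higher by 1.07 (adjusted p = 0.0452, edgeR; up to 0.517 and not called without any 1 of the 4 libraries, and 0.813 with DESeq2). Col1a1 held only 3.20 and 2.96 CPM in mCherry and 7.10 and 5.66 in ZF-SCN9A. It was the 1 call among 3 fibroblast markers tested, beside 4.72% of all genes. Glial markers summed to 32.6 to 33.7 and 32.8 to 37.7 CPM, and immune and endothelial markers to 19.0 to 22.8 and 25.1 to 25.7 CPM. In the dCas9 arm the 4 sums overlapped between groups. The part of these markers in the Sncg difference was not tested.

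The genes whose pattern over all 10 libraries was most like that of Sncg were found by the root mean square distance of centred log2(CPM + 0.5) among 12832 genes. They were Stat2 (0.135), an interferon signalling factor, Atp6v1g1 (0.193), a subunit of the vacuolar proton pump, Git1 (0.202), an ARF GTPase-activating scaffold and Pnma2 (0.203), a neuronal gene of retroviral origin. Stat2, the nearest, held 93.8 and 102 CPM in mCherry and 40.2 and 38.5 in ZF-SCN9A. The median gene stood at 0.544, Sncb at 0.595 and Scn9a at 0.612. The 4 genes had log2 fold changes with ZF of -1.31, -1.19, -1.48 and -1.23 in the order given, and with dCas9 between -0.02 and 0.04. These genes were taken for this pattern, so the values carry no test.

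**Figure D5:**
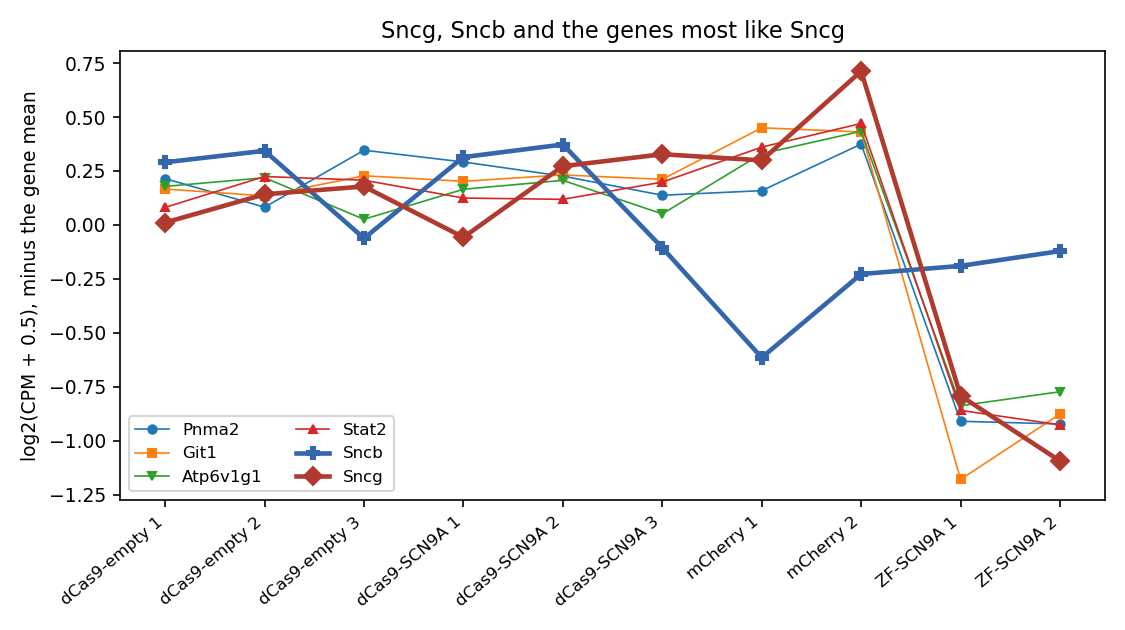
Log2(CPM + 0.5) minus the gene's mean, for Sncg, the 4 genes most like it and Sncb, in each of the 10 libraries; lines join the values of a gene and imply no order. Sncg and the 4 genes are lowest in the 2 ZF-SCN9A libraries, and Sncb is not.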

How the data were processed

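RNA from transfected Neuro2a cells was sequenced on a NovaSeq, per the labels' protocols. The authors deposited raw read counts per gene in the layout of STAR gene counts, and bcl2fastq 2.20, STAR 2.7.3a, DESeq2 and GRCm38 are named in the submitters' processing notes. Counting settings and annotation are not stated there. The unstranded column was used. Identifiers matched GENCODE M21 for 55141 of 55401. Entries naming no gene held 25.0% to 28.2% of reads and were left out, as were plasmid entries.

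Each repressor was tested against its own control with edgeR 4.0.16 (quasi-likelihood, TMM, filter on low counts, robust, two-sided, R 4.3.3, limma 3.58.1), with Benjamini-Hochberg adjustment over all genes. DESeq2 1.42.0, limma-voom, other scalings and filters, both stranded columns, exon length correction, the replicate block and leaving out each library were alternatives. All replicates differed by more than sampling noise. Members, lists and named genes (neighbours, called list members or the lowest p, the nearest in pattern) were chosen with earlier results of these data known, and 1 gene that the rule names is not reported here. The planned protein comparison was not run, because no table of protein sequences was at hand. Coding bases were compared instead. In the ZF fit 88.0% of genes had infinite prior degrees of freedom. Their p-values and SEs thus use a spread pooled over genes rather than that of 2 against 2 libraries. The edgeR, DESeq2 and limma fits were run on simulated counts with the same dispersion for every gene. This checks the code only and cannot judge the calls made here.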

Additional observations from a re-analysis of the deposited data

Results flagged for a closer look

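Shown are the named genes whose dCas9 change minus ZF change had an adjusted p under 0.05 (edgeR, all 10 libraries in 1 fit). Of all genes tested in it, 0.907% passed. Values are log2 with SE. Sncg gave 1.56 ± 0.21, which is a description because the ZF comparison chose it. Among listed genes, Gata2 gave 0.66 ± 0.09, Ret -0.42 ± 0.10 and P2rx3 -0.69 ± 0.16, and Unc5a beside Sncb gave 0.75 ± 0.13. Gata2, Ret and P2rx3 were named because they were called with ZF, so part of their difference follows from that choice. The genes most like Sncg gave 1.29 ± 0.11 for Stat2, 1.20 ± 0.11 for Atp6v1g1, 1.52 ± 0.10 for Git1 and 1.24 ± 0.21 for Pnma2, and were taken for that pattern. What lies behind these differences was not tested.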

How the results depend on the processing

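Exon length correction turned the dCas9 value of Sncg to -0.034 and of Sncb to -0.028, both far inside their intervals; the cause was not tested. Leaving out 1 library gave 0.01 to 0.20 for Sncg and -0.10 to 0.15 for Sncb with dCas9, -1.66 to -1.23 and 0.075 to 0.47 with ZF, 1.33 to 1.75 and -0.45 to -0.06 for the difference between arms, and -0.16 to 0.25 (dCas9) and -1.95 to -1.56 (ZF) for the log2 ratio. With dCas9, 6 genes were called, against 172 with no filter, 2 with exon length correction, 57 with DESeq2, 29 with all 10 libraries in 1 fit, and 1 to 34 with 1 library left out (3 and 21 without dCas9-empty replicates 2 and 3, and 34, 17 and 1 without dCas9-SCN9A replicates 1, 2 and 3). With ZF, 609 were called, against 115 with DESeq2, 348 with all 10 libraries in 1 fit and 201 to 787 with 1 library left out (262 without mCherry replicate 1, 201 and 249 without ZF-SCN9A replicates 1 and 2). Of 296 alternatives for single named genes, 69 ended a call, 2 moved a value by more than the SD within groups and 0 turned a sign. For the 4 genes most like Sncg calls were not followed, and a missing adjusted p did not count as a lost call. The main tests did not pair samples by replicate number. Deviations from group means correlated at 0.24, 0.16 and 0.04 between same-numbered dCas9 libraries and at -0.23 to 0.10 between the others. In that arm only dCas9-empty replicate 3 correlated better with another number, so a pairing is possible there. With ZF, 2 against 2 libraries give values of the same size (0.07 and -0.07), which cannot settle a pairing. For Sncb with dCas9 the SE was 0.05 with the replicate block and 0.16 without. With the replicate block, 262 and 570 genes were called, and Sncg and Sncb stood at 0.08 and 0.01 with dCas9, -1.44 and 0.27 with ZF, and 1.53 and -0.26 for the difference. DESeq2 gave no adjusted p for Sncg with dCas9. Depth limits Sncg most in ZF-SCN9A, with 50 and 89 reads.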
